A study of Homo sapiens with 4 samples.

Results

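The proteasome subunit genes are the protein-coding genes whose symbol is PSM, a letter from A to G and a number. The rule goes by name and uses no measured value, and 48 of the 61852 genes in the deposited tables met the rule. The data are poly(A) RNA sequencing of 4 libraries of H1299, a human non-small-cell lung carcinoma line with the genotype p53-/-, grown without a stated treatment. In 2 libraries the cells expressed CASM34, given in the design text as a mutant of p53, and in the other 2 they expressed p53WT, the wild-type form. The series title places the study among cancer-associated synonymous mutations of p53, and all 4 libraries share the p53-null background, so p53 came only from the introduced form. The sources used here name neither the vector and its promoter nor whether replicates came from separate cultures, so a p-value reflects the spread from library to library, technical spread included.

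The proteasome is the cell's main machine for breaking down proteins tagged with ubiquitin. Its barrel-shaped core particle holds outer alpha rings that gate the channel and inner beta rings with the proteolytic sites, and a regulatory particle of a base and a lid recognises, unfolds and threads the substrate. Interferon replaces the catalytic beta subunits with immunoproteasome forms and induces the PA28 activator, which alters the peptides offered for antigen presentation. When proteasome activity falls short, the transcription factor NFE2L1 (also called NRF1) raises most subunit genes together through antioxidant response elements. Wild-type p53 is itself a substrate, since the ubiquitin ligase MDM2 marks it for the proteasome. Comparing CASM34 with p53WT asks whether the mutant form of p53 was accompanied by a different level of this machinery.

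The 250 bases before the first listed start of each gene (RefSeq, GRCh38.p14) were available for 42 of the 48 genes, with no entry for PSMA7, PSMB1, PSMB6, PSMB7, PSMD4 and PSMG3. Shown here are the promoters of PSMC1, the PSM gene with the smallest p, of ADRM1, the proteasome subunit gene outside the PSM names that passed the test, and of 3 genes in the immunoproteasome comparison. Capitals mark matches, on either strand, to the antioxidant response element core (TGACNNNGC), the CCAAT box (CCAAT) and the interferon-stimulated element core (GAAANNGAA). The windows are chr14:90256303-90256552 on the plus strand for PSMC1, chr20:62302646-62302895 on the plus strand for ADRM1, chr6:32853942-32854191 on the plus strand for PSMB9, chr6:32853705-32853954 on the minus strand for TAP1 and chr14:24146611-24146860 on the minus strand for PSME2.
PSMC1: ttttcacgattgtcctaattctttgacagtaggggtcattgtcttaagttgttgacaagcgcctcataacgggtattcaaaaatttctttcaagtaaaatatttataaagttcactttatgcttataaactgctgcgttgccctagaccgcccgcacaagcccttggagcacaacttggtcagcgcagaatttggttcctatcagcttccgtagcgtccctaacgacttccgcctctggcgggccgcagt
ADRM1: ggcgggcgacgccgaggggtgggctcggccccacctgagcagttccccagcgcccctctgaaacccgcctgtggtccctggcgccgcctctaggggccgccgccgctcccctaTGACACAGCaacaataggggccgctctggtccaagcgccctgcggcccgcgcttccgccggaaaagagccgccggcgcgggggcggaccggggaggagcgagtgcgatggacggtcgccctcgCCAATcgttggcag
PSMB9: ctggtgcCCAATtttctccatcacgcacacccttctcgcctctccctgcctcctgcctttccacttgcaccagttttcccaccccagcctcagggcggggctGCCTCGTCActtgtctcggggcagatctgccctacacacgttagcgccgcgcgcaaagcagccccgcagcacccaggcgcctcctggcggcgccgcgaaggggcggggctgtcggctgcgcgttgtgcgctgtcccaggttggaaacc
TAP1: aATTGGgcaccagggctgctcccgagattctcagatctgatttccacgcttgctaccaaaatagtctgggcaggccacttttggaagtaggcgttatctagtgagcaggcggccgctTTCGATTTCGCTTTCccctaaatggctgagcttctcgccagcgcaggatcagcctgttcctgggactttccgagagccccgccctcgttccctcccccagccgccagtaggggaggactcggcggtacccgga
PSME2: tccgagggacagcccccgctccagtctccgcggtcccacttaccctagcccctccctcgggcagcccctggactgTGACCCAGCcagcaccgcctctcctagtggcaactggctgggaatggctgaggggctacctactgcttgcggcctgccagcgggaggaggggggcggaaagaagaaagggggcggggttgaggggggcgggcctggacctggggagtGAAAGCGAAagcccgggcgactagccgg
The PSMC1 window held none of these motifs. The windows of PSMB9 and TAP1, neighbouring genes on opposite strands, share their ends, so the same CCAAT box opens both sequences. The interferon-stimulated element matches of TAP1 lie on the strand opposite the one printed and overlap each other.

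Among the 42 PSM promoters, 11 (26.2%) held the antioxidant response element core, against 11.0% of 27305 promoters of all genes. The matches were spread unevenly over the roles. They were in 3 of 26 core, base and lid promoters (11.5%, near the share of all promoters; PSMB3, PSMD3 and PSMD12). The immunoproteasome had 3 of 5 (PSMB9, PSME1 and PSME2) and the assembly genes 4 of 6. The CCAAT box was in 18 of the 42 (42.9%), against 33.0% of all promoters. The ETS core (CCGGAAG) was in 10 (23.8%), 4 of them lid genes, against 8.82% of all promoters. The interferon-stimulated element core was in 5 (11.9%; PSMA4, PSMB4, PSMB10, PSME2 and PSMG4), against 7.06%, and the p53 half-site in 3 (7.14%; PSMA2, PSMD13 and PSMB10), against 5.53%. The median GC content was 61.6% in the 42 PSM promoters and 58.0% in all promoters, and the shares were not adjusted for it. The motif counts describe letters in a window and are not evidence of binding.

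Total expected counts per library were 26906095 and 18086983 in CASM34 and 21717726 and 25969760 in p53WT. The line's labelled identity was checked on markers: KRT8, KRT18 and VIM were high in every library, while lung lineage markers (NKX2-1, SFTPB, SFTPC and SCGB1A1) stayed at or below 0.83 TPM. EPCAM, often used to mark epithelial cells, was at most 0.30 TPM. Of the 4 leukocyte markers PTPRC and CD3E were at 0 in all 4 libraries, CD74 was at most 0.47 TPM, and LYZ was at 0 in CASM34 and at 0.18 and 0.10 TPM in p53WT. Of the fibroblast and endothelial markers, COL1A2, PECAM1 and VWF were at most 0.16 TPM, and DCN had 0.15 and 0.87 TPM in CASM34 and 0.41 and 5.06 TPM in p53WT. The 5.06 TPM came from 17 counts at an effective length of 153, against 824 to 954 in the other libraries. In CPM, DCN had 0.11 and 0.60 in CASM34 and 0.32 and 0.66 in p53WT. Of the 15965 genes tested, 257 rose (1.61%) and 55 fell (0.345%) in CASM34 at an adjusted p under 0.05 (edgeR quasi-likelihood F test, Benjamini-Hochberg adjustment over all genes tested).

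No PSM gene passed that test. Of the 48 genes, 46 had enough counts to be tested, and 0 rose and 0 fell. DESeq2 and limma-voom each called 1 gene lower, PSMC1, and limma on log2(TPM + 1) called 0. The fold changes (log2, CASM34 over p53WT) ran from -0.18 to 0.10 with a median of -0.07, and the 95% intervals of all 46 lay between -0.32 and 0.26. The lowest bound belonged to PSMB8 and the highest to PSMG4, both among the less abundant members. In bulk RNA a smaller level per cell and fewer expressing cells cannot be told apart.

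Although each shift was small, 38 of the 46 genes (82.6%) had a fold change below 0, against 50.2% of all genes tested, whose median was -0.00. In 25 PSM genes (54.3%) both CASM34 libraries were below both p53WT libraries, against 23.4% of all genes, and in 2 (PSMA7 and PSMB10) both were above, against 24.5% of all genes. The median standard error was 0.0490 for PSM genes and 0.0912 for all genes, so a small shift parts the groups more readily in PSM genes. At an unadjusted p under 0.05 there were 7 lower PSM genes, PSMC1, PSMD5, PSMD12, PSMD7, PSMC6, PSMB2 and PSMD6, where the share over all genes was 6.81%. No PSM gene was higher at that threshold, where the share over all genes was 10.3%. In either direction it was 15.2% of PSM genes against 17.1% of all genes. Library by library, the median deviation of the 46 genes from their own mean was -0.0251 and -0.0425 (log2) in CASM34 and 0.00283 and 0.0568 in p53WT, so the second p53WT library stood highest. Without it, 31 of 46 were below 0 and the median was -0.0431.

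**Figure D1:**
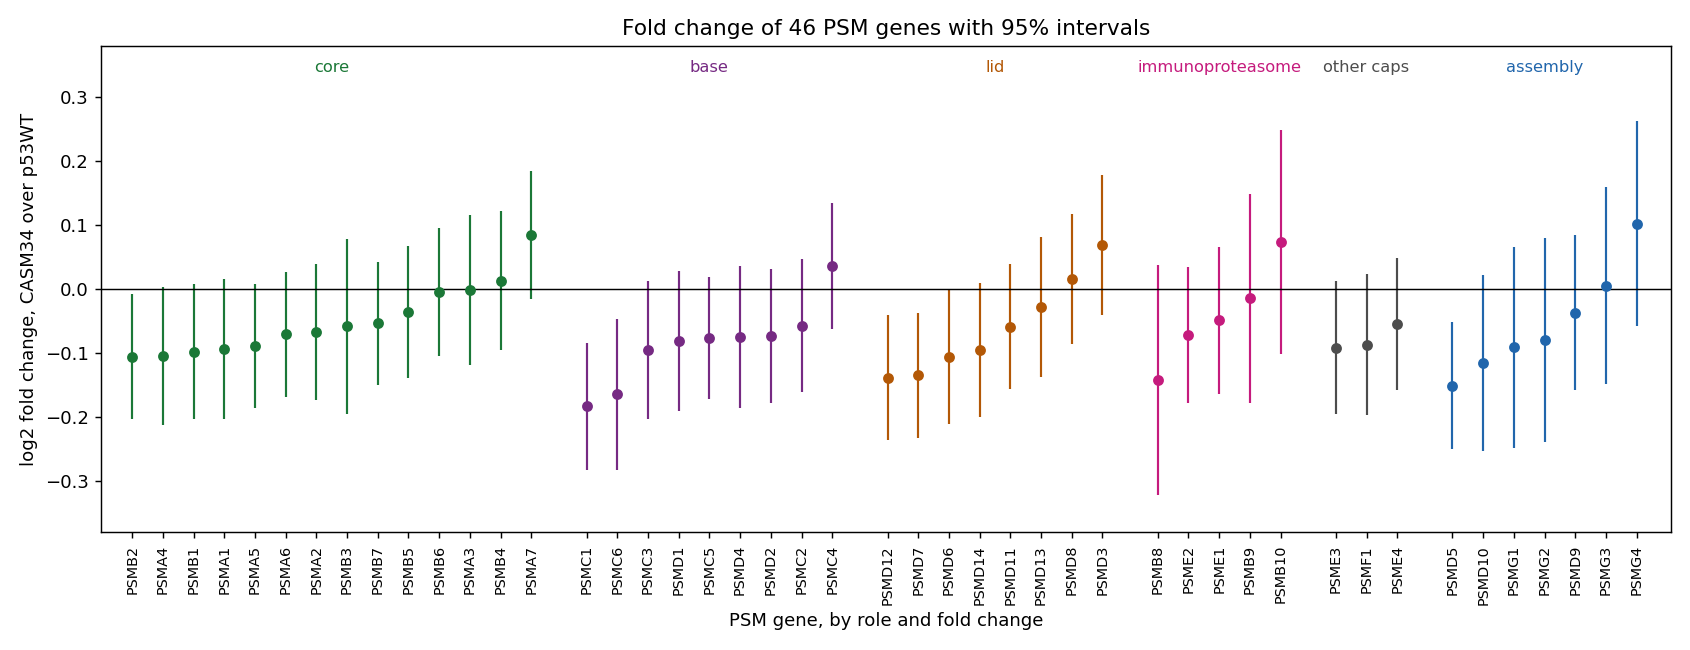
The log2 fold change of each tested PSM gene, CASM34 over p53WT, is plotted by role, with bars for the 95% interval of the edgeR fit. Most points lie just under 0, between -0.18 (PSMC1) and 0.10 (PSMG4), and 39 of the 46 intervals cross 0.

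Of the 14 core particle genes, 12 were below 0 and the median was -0.06. At an unadjusted p under 0.05 (edgeR) there was 1 gene, lower, where the share of lower genes over all genes was 6.81%. That gene was PSMB2, which encodes beta4, a non-catalytic beta ring subunit. PSMB2 had 207 and 210 CPM in CASM34 and 220 and 228 CPM in p53WT. Its groups did not overlap, and the difference was -0.11 (SE 0.05, 95% interval -0.20 to -0.01, edgeR adjusted p = 0.252). The highest in the core was PSMA7, the alpha4 subunit of the gating ring, with 415 and 422 CPM in CASM34 against 385 and 404 CPM in p53WT. Both CASM34 libraries were above both p53WT libraries, by 0.08 (SE 0.05, edgeR adjusted p = 0.379). Of the 7 alpha ring genes, 6 were below 0 with a median of -0.07; of the 4 non-catalytic beta genes 3 were below 0 with a median of -0.08; and the 3 catalytic beta genes had a median of -0.04. PSMA3, the alpha7 subunit, had 82.3 and 80.8 CPM in CASM34 and 78.0 and 85.2 CPM in p53WT, so the p53WT libraries enclosed both CASM34 values. Its reads could include some of the antisense gene PSMA3-AS1, but both genes had whole counts in every library. No division of reads between PSMA3 and PSMA3-AS1 was thus seen.

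The base holds the ring of 6 ATPases that unfolds substrates, with scaffold subunits and a ubiquitin receptor. Of its 9 genes, 8 were below 0 and the median was -0.08; for the ATPases alone it was -0.09. PSMC1 encodes Rpt2, the ATPase whose tail helps to open the core's gate, and lies at chr14:90256495-90275429 on the plus strand. PSMC1 had 341 and 330 CPM in CASM34, against 373 and 389 CPM in p53WT. The means were 335 ± 7.54 in CASM34 and 381 ± 10.9 in p53WT (SD, n = 2 each; edgeR test). The fold change of PSMC1 was -0.18 (SE 0.05, 95% interval -0.28 to -0.08), the largest in size among the PSM genes, with an adjusted p of 0.0646 in edgeR, 0.00550 in DESeq2 and 0.0435 in limma-voom. Over the 16 other settings the adjusted p of PSMC1 ran from 0.00271 (edgeR with a replicate block) to 0.427 (edgeR with an effective-length offset), and the difference was -0.13 with an offset for GC content and length.

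RSEM shared some PSMC1 reads with near-identical copies, since its counts were fractional in every library. Of 44 PSM pseudogenes in the tables, 2 had enough counts to be tested, PSMC1P1 and PSME2P1. PSMC1P1, a processed copy of PSMC1 on chromosome 3, received 296 and 279 counts in CASM34 and 365 and 432 in p53WT. Its own fold change was -0.37 (SE 0.13, edgeR adjusted p = 0.172), in the same direction as the parent. With pseudogene counts added to their parents, a setting chosen after seeing the data, PSMC1 stood at -0.19 with an edgeR adjusted p of 0.0529.

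PSMC6 encodes the ATPase Rpt4. PSMC6 had 86.4 and 88.0 CPM in CASM34 against 92.7 and 102 CPM in p53WT, with no overlap and a fold change of -0.16 (SE 0.05, edgeR adjusted p = 0.145). It was -0.079 with the GC and length offset, -0.27 with the effective-length offset and -0.087 without the second p53WT library. PSMC4, the ATPase Rpt3, was the 1 base gene above 0, at 313 and 302 CPM in CASM34 and 295 and 304 CPM in p53WT. Its difference of 0.04 had an edgeR adjusted p of 0.742 and the groups overlapped. PSMC4 was at -0.019 once GC content and length entered the fit. The 3 base genes that are not ATPases are PSMD1 and PSMD2, which encode the scaffolds Rpn2 and Rpn1, and PSMD4, the ubiquitin receptor Rpn10. They lay between -0.08 and -0.07.

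The lid removes ubiquitin chains through Rpn11 and braces the base against the core. Of its 8 genes, 6 were below 0 and the median was -0.08. That median was -0.042 with the GC and length offset and -0.038 with the effective-length offset. At an unadjusted p under 0.05 (edgeR) there were 3 genes, all lower, where the share of lower genes over all genes was 6.81%. PSMD12, the scaffold subunit Rpn5, had 120 and 122 CPM in CASM34 against 133 and 134 CPM in p53WT. The replicates were close and the groups apart, with a fold change of -0.14 (SE 0.04, 95% interval -0.24 to -0.04, edgeR adjusted p = 0.135). It was -0.061 with the GC and length offset, -0.068 with the effective-length offset and -0.076 on log2(TPM + 1). PSMD7, the partner of the deubiquitinase, had 190 and 186 CPM in CASM34 against 204 and 210 CPM in p53WT (-0.13, edgeR adjusted p = 0.145). PSMD6, the scaffold Rpn7, had 77.6 and 77.4 CPM in CASM34 against 84.6 and 82.3 CPM in p53WT (-0.11, edgeR adjusted p = 0.285). In both genes the groups did not overlap, and with the GC and length offset PSMD7 stood at -0.099 and PSMD6 at -0.041. PSMD14, the deubiquitinase Rpn11 itself, had 160 and 150 CPM in CASM34 and 163 and 169 CPM in p53WT, a difference of -0.09 with an edgeR adjusted p of 0.342, which turned to 0.012 with an offset for GC content and length. The highest of the lid was PSMD3, the Rpn3 subunit, at 198 and 188 CPM in CASM34 and 177 and 191 CPM in p53WT. Its groups overlapped, with a difference of 0.07 (SE 0.05, edgeR adjusted p = 0.527) that was -0.0022 with the GC and length offset.

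For the 31 genes of core, base and lid together, 26 were below 0 and 5 above. In 18 of them CASM34 was wholly below p53WT, where the share over all tested genes was 23.4%, and in 1, PSMA7, wholly above, where that share was 24.5%. The median was -0.07.

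The immunoproteasome genes gave no called difference either, and 4 of 5 were below 0 with a median of -0.05. PSMB8 (beta5i) and PSMB9 (beta1i) lie in the major histocompatibility region with overlapping annotated ends, at chr6:32840717-32844703 on the minus strand and chr6:32844136-32859585 on the plus strand, and PSMB10 (beta2i) lies at chr16:67934502-67937087 on the minus strand. PSMB8 had 24.9 and 28.6 CPM in CASM34 and 30.4 and 28.4 CPM in p53WT. The groups overlapped, and the fold change of -0.14 (SE 0.08, 95% interval -0.32 to 0.04) had an edgeR adjusted p of 0.414. With 1 library left out it ran from -0.24 (without the second CASM34 library) to -0.039 (without the first). The antisense gene PSMB8-AS1 (chr6:32844086-32846495 on the plus strand) overlaps PSMB8 in part. Since the strand setting is not given, reads in the shared stretch cannot be told apart by strand. Both genes had fractional counts in every library, 522 to 734 for PSMB8 and 16.9 to 33.0 for PSMB8-AS1. PSMB9 overlaps PSMB8 at the ends and holds TAP1 within its span, but PSMB9 had whole counts in every library. No division of PSMB9 reads with those genes was thus seen, though reads assigned wholly to the wrong gene would not show.

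PSMB9 had 27.3 and 28.9 CPM in CASM34 and 27.2 and 29.3 CPM in p53WT, which is -0.01 (SE 0.08, 95% interval -0.18 to 0.15, edgeR adjusted p = 0.947). The p53WT pair enclosed the CASM34 pair. PSMB10 had 22.6 and 22.0 CPM in CASM34 against 21.6 and 20.9 CPM in p53WT. Both CASM34 values were above both p53WT values, by 0.07 (SE 0.08, 95% interval -0.10 to 0.25, edgeR adjusted p = 0.700), and the difference was -0.049 with the GC and length offset. With 2 libraries a group, differences inside these intervals were not excluded.

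None of the constitutive partners was called. PSMB5 (beta5, the chymotrypsin-like site and the target of bortezomib) had 202 and 194 CPM in CASM34 and 197 and 208 CPM in p53WT, a difference of -0.04 (95% interval -0.14 to 0.07, edgeR adjusted p = 0.758). PSMB6 (beta1, the caspase-like site) had 253 and 260 CPM in CASM34 and 252 and 263 CPM in p53WT, with a 95% interval of -0.10 to 0.10 and an edgeR adjusted p of 0.974. In PSMB5 and PSMB6 the groups overlapped. PSMB7 (beta2, the trypsin-like site) had 389 and 388 CPM in CASM34 against 398 and 408 CPM in p53WT, apart by -0.05 (95% interval -0.15 to 0.04, edgeR adjusted p = 0.587).

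Set side by side per length, the immunoproteasome forms were a minor part of each catalytic pair in every library. By TPM, PSMB8 made up 8.87% and 10.4% of PSMB8 plus PSMB5 in CASM34, and 11.0% and 9.61% in p53WT. PSMB9 made up 7.25% and 7.48% of PSMB9 plus PSMB6 in CASM34, and 7.35% and 7.56% in p53WT. PSMB10 made up 10.1% and 9.86% of PSMB10 plus PSMB7 in CASM34, and 9.71% and 8.77% in p53WT. The ranges overlapped for the PSMB8 and PSMB9 pairs and not for the PSMB10 pair. Constitutive transcripts were thus between 8.07 and 12.8 times as abundant as their immunoproteasome partners.

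**Figure D2:**
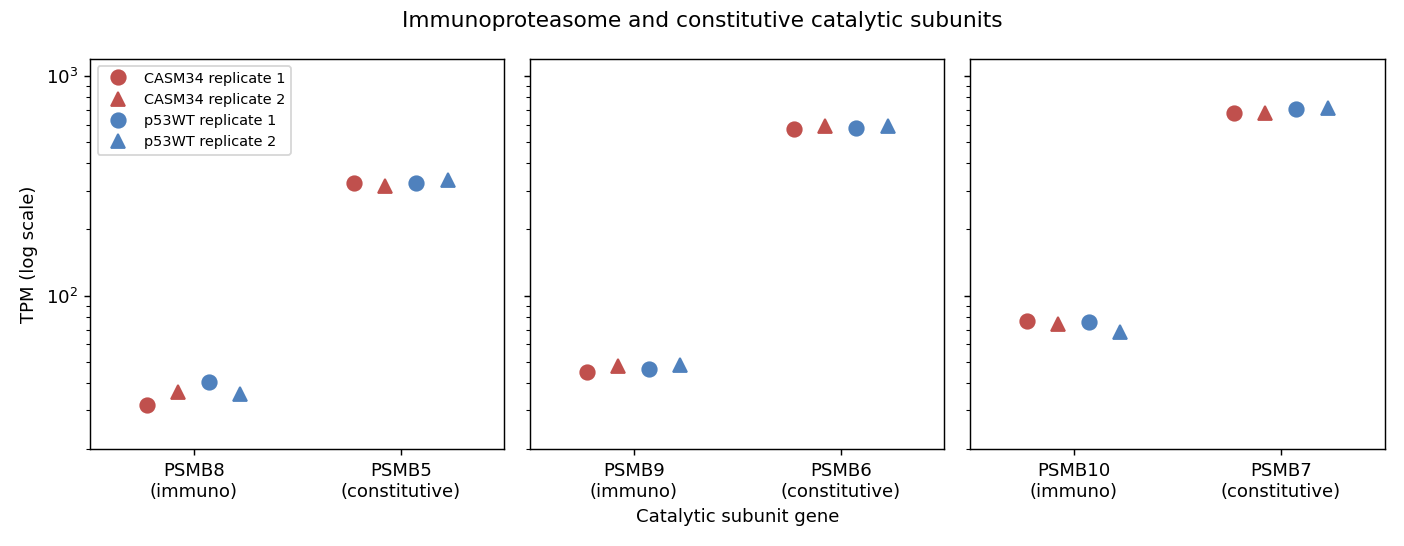
TPM (log scale) of each immunoproteasome catalytic gene and of the constitutive gene it replaces is plotted per library, with CASM34 left of p53WT. Every immunoproteasome gene sits well below its partner, for example 44.9 to 48.5 TPM for PSMB9 and 574 to 594 TPM for PSMB6, and the groups lie close together within each gene.

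PSME1 and PSME2 encode the interferon-inducible activator PA28 alpha and beta. PSME1 had 64.9 and 61.5 CPM in CASM34 and 64.9 and 66.0 CPM in p53WT (-0.05, 95% interval -0.16 to 0.07, edgeR adjusted p = 0.695). PSME2 had 70.3 and 70.0 CPM in CASM34 against 73.5 and 73.9 CPM in p53WT (-0.07, 95% interval -0.18 to 0.03, edgeR adjusted p = 0.498). On the TPM scale PSME2 looked more different, at 158 and 167 TPM in CASM34 against 225 and 186 TPM in p53WT. The effective length that RSEM assigned to PSME2 varied 1.35-fold between libraries, so its TPM and CPM do not carry the same comparison.

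The remaining caps were PSME3, the nuclear activator PA28 gamma, PSME4, the nuclear activator PA200, and PSMF1, the regulator PI31. All 3 were below 0, between -0.09 and -0.05, with CASM34 wholly below p53WT, where the share over all tested genes was 23.4%. With the effective-length offset only 1 of the 3 was below 0, and the median was 0.00049. On log2(TPM + 1) the median was -0.0082, with 2 below 0. PSME3 had 153 and 144 CPM in CASM34 against 161 and 156 CPM in p53WT (-0.09, SE 0.05, edgeR adjusted p = 0.358). The sign of PSME3 depended on its effective length, which varied 1.30-fold between libraries, and the difference was 0.13 when effective length entered the fit and 0.12 on log2(TPM + 1). PSME4 had 87.2 and 84.8 CPM in CASM34 against 90.0 and 88.8 CPM in p53WT (-0.05, edgeR adjusted p = 0.615). At 17.3 to 17.6 TPM it was the least abundant member tested.

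Proteasomes are put together by dedicated chaperones that do not stay in the finished particle. Of the 7 assembly genes 5 were below 0, with a median of -0.08. The 3 base chaperones were all below 0 with a median of -0.12, and the 4 core chaperones (PSMG1 to PSMG4, which encode PAC1 to PAC4) were split 2 below and 2 above with a median of -0.04. PSMD5, the base chaperone S5b, had 91.1 and 91.6 CPM in CASM34 against 101 and 101 CPM in p53WT. The replicates lay close together and the groups were apart, with a fold change of -0.15 (SE 0.05, 95% interval -0.25 to -0.05, edgeR adjusted p = 0.114). The effective length of PSMD5 varied 1.42-fold between libraries, and the difference was -0.41 when effective length entered the edgeR fit (adjusted p = 0.364) and -0.39 in limma on log2(TPM + 1). PSMD10, or gankyrin, a base chaperone that also binds MDM2, had 50.3 and 52.0 CPM in CASM34 against 52.1 and 58.4 CPM in p53WT. Its lowest p53WT value lay just above the CASM34 pair, and the difference was -0.12 (SE 0.06, edgeR adjusted p = 0.382), or -0.052 with the GC and length offset and -0.027 without the second p53WT library. PSMG4, the core chaperone PAC4, was the highest PSM gene by fold change, with 35.9 and 31.7 CPM in CASM34 and 31.9 and 31.4 CPM in p53WT. The first CASM34 library alone stood apart, and the difference of 0.10 (SE 0.07, 95% interval -0.06 to 0.26) had an edgeR adjusted p of 0.525. Without that library it was 0.0027.

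The tissue-restricted members were absent or nearly so. PSMA8, the alpha4s subunit of the testis, had 0 counts in all 4 libraries. PSMB11, the beta5t subunit of thymic epithelium, had 4 and 2 counts in CASM34 and 0 and 0 counts in p53WT. A floor of 3 counts a library stands for a count of 0 and covers counting error only, so no fold was formed for PSMB11.

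The PSM genes took a similar share of all transcripts in every library. Together they made up 1.04% and 1.02% of all TPM in CASM34 and 1.05% and 1.09% in p53WT. Core genes summed to 5397 and 5462 TPM in CASM34 and 5487 and 5707 TPM in p53WT, base genes to 2404 and 2291 TPM in CASM34 and 2458 and 2542 TPM in p53WT, and lid genes to 1305 and 1268 TPM in CASM34 and 1279 and 1320 TPM in p53WT. The immunoproteasome genes summed to 428 and 437 TPM in CASM34, against 506 and 457 TPM in p53WT, where PSME2 accounts for most of the gap between the 428 and the 506. The assembly genes summed to 522 and 490 TPM in CASM34 and 510 and 559 TPM in p53WT.

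Levels differed far more between subunits than between libraries. Among the 31 core, base and lid genes the mean TPM ran from 827 for PSMB1, the beta6 subunit, to 72.4 for PSMD11, the lid scaffold Rpn6, an 11.4-fold span. The coefficient of variation between these genes was 73.0%, against a median of 4.53% between the 4 libraries for 1 gene. PSMB1 was the highest and PSMD11 the lowest of the 31 in every library. Within the core the span was 9.04-fold, down to PSMA5 (alpha5) at 91.4 TPM. Within the base it was 5.77-fold, from PSMC1 at 525 TPM to PSMC2 (Rpt1) at 91.0 TPM. Within the lid it was 6.10-fold, from PSMD8 (Rpn12) at 441 TPM to PSMD11. Of the 30 pairs of neighbours in the order of mean TPM, 19 overlapped between libraries and 11 did not, among them PSMB1 over PSMA7 and PSMC1 over PSMD8.

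**Figure D3:**
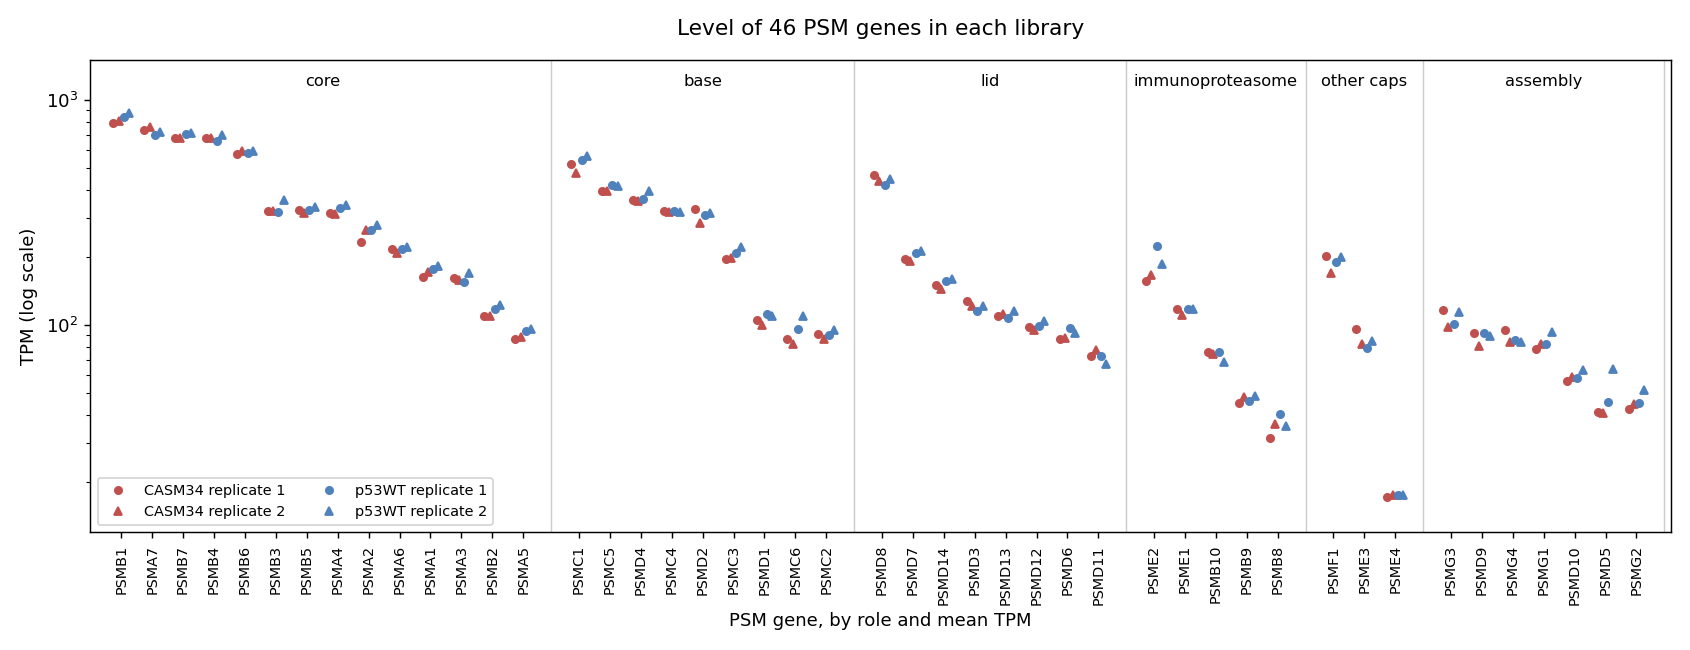
TPM (log scale) of each tested PSM gene is plotted per library, grouped by role and ordered by mean level. The 4 points of a gene lie close together beside the spread between genes, from 827 TPM for PSMB1 to 17.5 TPM for PSME4.

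The fold changes varied with the GC content of the transcripts, in PSM genes and in all genes. Across genes, which are not independent replicates, Spearman's rho between GC content and fold change was 0.54 over the 46 PSM genes and 0.47 over 15664 tested genes with a GC value. Within each library the deviation from the gene mean sloped with GC content by 0.0735 and 0.0399 (log2 per 10 points) in CASM34 and by -0.0585 and -0.0549 in p53WT. The median GC content was 48.9% in the 46 PSM genes and 49.5% in all tested genes, but it differed by role, from 44.3% in the core to 52.4% in the immunoproteasome. Since the slope had 1 sign in both CASM34 libraries and the other in both p53WT libraries, it cannot be told apart from the form of p53 in this design.

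Within bands of GC content the PSM genes were still on the lower side. Below 45% GC, all 17 PSM genes were below 0 with a median of -0.09, where 73.9% of 5095 genes were below 0 and the median was -0.07. From 45% to 50%, 8 of 9 were below 0 with a median of -0.09, against 62.4% of 3063 genes and a median of -0.04. At 50% and above, 13 of 20 were below 0 with a median of -0.03, against 29.3% of 7506 genes and a median of 0.08. That band has no upper bound, and GC content inside it was not matched between PSM genes and all genes. With an offset for GC content and length in the fit, 38 of the 46 were again below 0, 33 of them among the 38 without the offset, since 5 genes turned above 0 (PSMA2, PSMA3, PSMA6, PSMD14 and PSMB9) and 5 below (PSMC4, PSMD3, PSMD8, PSMB10 and PSMG3). The median was -0.04, against -0.019 over all genes in that fit, whose share below 0 was not counted. No PSM gene passed the edgeR test, the smallest adjusted p being 0.150 for PSMC3, the ATPase Rpt5. With that offset all 9 base genes were below 0 with a median of -0.09, the lid median was -0.04, that of the immunoproteasome -0.05 and that of the core -0.02.

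**Figure D4:**
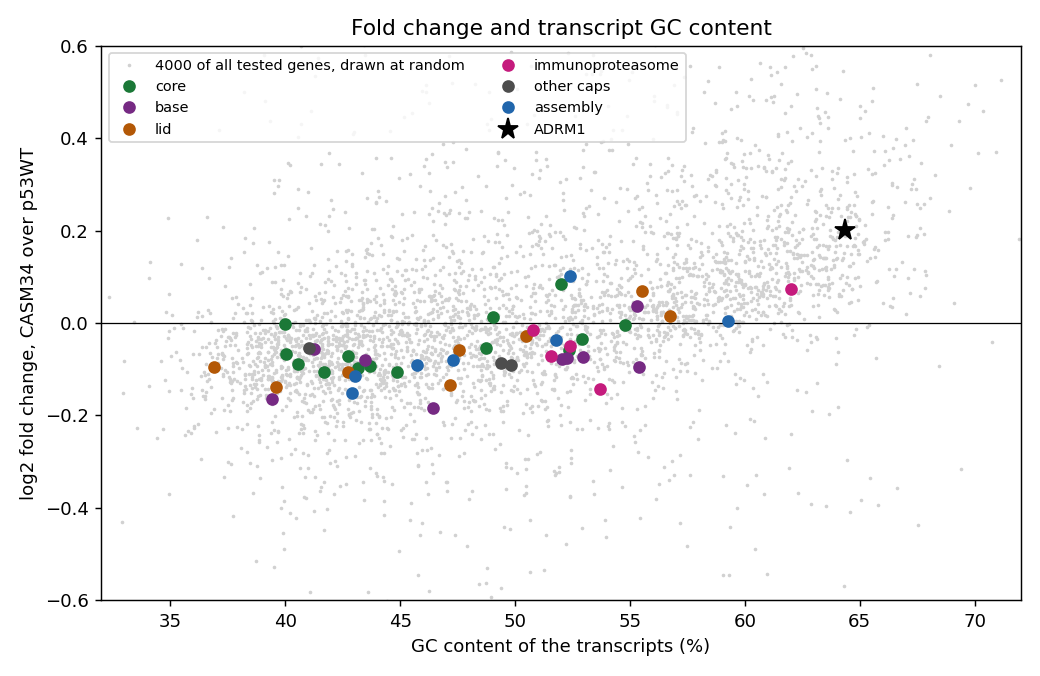
The log2 fold change, CASM34 over p53WT, is plotted against transcript GC content, with PSM genes coloured by role, ADRM1 as a star and a random draw of the tested genes in grey. The vertical axis stops at -0.6 and 0.6. The grey cloud and the PSM genes climb together with GC content, and all 17 PSM genes below 45% lie under 0.

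Proteasome genes that carry other names gave 1 call. Of the 12 such subunits and factors, 1 rose, 0 fell, 7 were below 0 and the median was -0.02. ADRM1 encodes Rpn13, a ubiquitin receptor of the base that also docks the deubiquitinase UCHL5, and lies at chr20:62302093-62308862 on the plus strand. ADRM1 had 416 and 400 CPM in CASM34, against 355 and 355 CPM in p53WT. The means were 408 ± 11.3 in CASM34 and 355 ± 0.104 in p53WT (SD, n = 2 each), and ADRM1 rose by 0.20 (SE 0.05, 95% interval 0.10 to 0.30, edgeR adjusted p = 0.0416). Its transcripts have a GC content of 64.4%, above that of every PSM gene, and with the GC and length offset the difference was -0.018 with an edgeR adjusted p of 0.894. The call was also lost in 3 of the 4 fits that left out 1 library, with 0.20 (edgeR adjusted p = 0.221) without the first p53WT library, 0.20 (0.167) without the second and 0.17 (0.0784) without the first CASM34 library. Over all 16 other settings its adjusted p ran from 0.000650 to 0.894. POMP, the chaperone of core maturation, had 90.4 and 93.9 CPM in CASM34 and 87.4 and 93.7 CPM in p53WT, with overlapping groups and a difference of 0.02, against 0.19 (edgeR adjusted p = 0.0870) with the GC and length offset.

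The pathway that raises proteasome genes when activity falls short showed no called change in edgeR among its 12 genes, of which 7 were above 0, with a median of 0.03. With the GC and length offset 4 of the 12 were above 0 and the median was -0.040. NFE2L1 itself had 385 and 391 CPM in CASM34 and 374 and 375 CPM in p53WT, a difference of 0.05 with an edgeR adjusted p of 0.618 that turned to -0.035 with that offset. The smallest p in the list belonged to MAFK, a small MAF protein that pairs with NFE2L1 on DNA. MAFK had 82.0 and 76.2 CPM in CASM34 against 68.3 and 69.4 CPM in p53WT, apart by 0.20 (SE 0.05, edgeR adjusted p = 0.0710). It passed the edgeR test when low counts were left in (adjusted p = 0.0320) and without the second CASM34 library (adjusted p = 0.00874), and stood at -0.045 with the GC and length offset.

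Of the 12 ubiquitin genes, activating enzymes and shuttle factors, 11 were tested, 9 of them below 0, with a median of -0.06 and no call in edgeR. UBA6, an alternative ubiquitin-activating enzyme, had 51.4 and 50.7 CPM in CASM34 against 58.5 and 55.8 CPM in p53WT (-0.16, SE 0.06, edgeR adjusted p = 0.157), and stood at -0.070 with the GC and length offset. Of the 12 antigen loading and interferon genes, 8 were above 0 with a median of 0.04 and none was called in edgeR. With the GC and length offset 3 of the 12 were above 0 and the median was -0.044. TAP1, which carries proteasome products into the endoplasmic reticulum and whose promoter sequence is printed beside that of PSMB9, had 182 and 185 CPM in CASM34 against 163 and 168 CPM in p53WT. The groups were apart by 0.15 (SE 0.05, edgeR adjusted p = 0.113) and by 0.084 with the GC and length offset, whereas PSMB9, which starts from the same stretch of DNA on the other strand, stood at -0.01.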

How the data were processed

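Poly(A) RNA of 2 CASM34 and 2 p53WT libraries was analysed. The submitters' processing notes list Trim Galore, STAR, RSEM and the build GRCh38; no source used here gives their versions, the annotation release or the strand setting. Per the file headers, each deposited table lists 1 library's RSEM expected count per gene. The authors also deposited an effective length, a TPM value and an FPKM value for each gene, and FPKM was left aside. RSEM divides reads that match several genes among them, and 15 PSM genes had fractional counts.

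Expected counts were rounded, and all genes were tested together with edgeR 4.0.16 (R 4.3.3). The quasi-likelihood F test was used with TMM factors, filterByExpr at its minimum count of 10 and no covariate. This left 15965 genes and removed 45887. Fold changes are log2, CASM34 over p53WT, and the standard error is the absolute fold change over the square root of F. "Rose" and "fell" mean an adjusted p (Benjamini-Hochberg, every tested gene) under 0.05. CPM uses the TMM factors (0.993 to 1.01). The common dispersion was 0.00193. Deposited TPM, which divides by effective length, served for levels between genes. Names and 1-based coordinates are from GENCODE 29 on GRCh38. The fits were tested on simulated data. Replicate libraries differed by more than counting error (chi-square per degree of freedom 3.92 in CASM34 and 3.86 in p53WT), so none is a copy of the other. These values cannot tell whether replicates came from separate cultures. Total counts ran from 18086983 to 26906095. With 2 libraries a group, an exact permutation test of 1 gene cannot go below p = 0.333.

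Alternatives were other scalings and filters, DESeq2 1.42.0, limma 3.58.1 (voom, and log2(TPM + 1)), an effective-length offset, a GC and length offset, a replicate block and each library left out. Pseudogene counts added to parents was chosen after seeing the data. The set of PSM genes, though defined by name, and the gene lists were picked with earlier results of these data known. Genes with values per library are those past the threshold, the highest and lowest fold change of each role, the catalytic pairs, PSME1, PSME2, the untested members and the smallest p of each related list. PSMA3, PSMC6, PSMD6, PSMD7, PSMD10, PSMD14, NFE2L1 and POMP were added for their role after their values were seen.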

Additional observations from a re-analysis of the deposited data

How the results depend on the processing

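No PSM gene rose under any of the 16 alternatives, and the number below 0 stayed between 31 and 41 of 46. The number of PSM genes that fell was 0 as reported and 1 with no filter on low counts, with DESeq2 and with limma-voom. It ranged from 0 to 1 with 1 library left out, and the gene was PSMC1 each time. The PSM median of -0.07 was -0.0399 with the GC and length offset, where the median over all genes was -0.0190. With 1 library left out the PSM median ran from -0.0890 to -0.0431, the highest being that without p53WT replicate 2. Related genes that rose numbered 1 as reported, 2 with no filter, 0 with log2(TPM + 1), 0 with the effective-length offset, 0 with the GC and length offset and 0 to 2 with 1 library left out; related genes that fell numbered 0, and 1 with DESeq2. Over all genes, 257 rose as reported, 542 with no filter, 133 with DESeq2, 0 with log2(TPM + 1), 5 with the effective-length offset, 31 with the GC and length offset and 95 to 650 with 1 library left out. Over all genes, 55 fell as reported, 27 with library totals only, 235 with no filter, 0 with log2(TPM + 1), 0 with the effective-length offset, 28 with the GC and length offset and 14 to 269 with 1 library left out. Signs that turned with the GC and length offset included those of ADRM1 (-0.018), MAFK (-0.045), PSMC4 (-0.019), PSMD3 (-0.0022), PSMB10 (-0.049) and PSMB9 (0.0025). With log2(TPM + 1), PSMC4 (-0.0013), PSMG3 (-0.0095), PSMD11 (0.10) and PSME3 (0.12) turned, and with the effective-length offset PSMD11 (0.11), PSME3 (0.13) and PSME4 (0.00049). With 1 library left out, PSMB5 ran from -0.078 to 0.0060, PSMB6 from -0.043 to 0.031 and PSMB9 from -0.069 to 0.044, each above 0 without p53WT replicate 2 and, for PSMB6 and PSMB9, without CASM34 replicate 1 too. What caused these changes was not tested. The GC and length offset takes both in together, and the log2(TPM + 1) setting also changes the test. The replicate numbers in the labels are shared by the groups but not tied to a batch or day. Same-numbered libraries deviated together with a correlation of 0.0335 across genes. That value weighs genes of low and high counts alike, so it cannot settle whether same-numbered libraries shared a batch. With the replicate block, 2 PSM genes fell (PSMC1 and PSMC6), 3 related genes rose (ADRM1, MAFK and TAP1), and over all genes 798 rose and 361 fell. Standard errors were widest where counts were low, and the 3 immunoproteasome catalytic genes and PSMG1 to PSMG4 had standard errors of 0.07 to 0.08, against a median of 0.0490 for PSM genes.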
